A study of Mus musculus with 144 samples.

Results

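Retinoid metabolism and retinoic acid targets were followed through 7 genes of the 55359 in the count files, chosen by symbol and read in every library of 36 groups. They were *Adh1* (ENSMUSG00000074207), *Adh4* (ENSMUSG00000037797), *Retsat* (ENSMUSG00000056666), *Dhrs3* (ENSMUSG00000066026), *Cyp26a1* (ENSMUSG00000024987), *Rarb* (ENSMUSG00000017491) and *Lrat* (ENSMUSG00000028003). In the GRCm38 annotation, *Adh1* lies on chromosome 3 at 138260991 to 138290698 and *Adh4* on the same strand at 138415466 to 138430892. *Lrat* is on the opposite strand of that chromosome at 82892579 to 82903973. *Retsat* lies on chromosome 6 (72598475 to 72608425), *Dhrs3* on chromosome 4 (144892827 to 144928209), *Cyp26a1* on chromosome 19 (37697798 to 37701536) and *Rarb* on chromosome 14 (16430839 to 16819156). The counts cover whole genes, all exons together.

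The libraries came from primary hepatocytes of male mice with an age label of 28 days, labelled either WT (strain C57BL/6NCrl) or PkmΔDRE, a strain named for the deletion of a dioxin response element (DRE) in *Pkm*, the pyruvate kinase gene. Cells received 10 nM TCDD, the dioxin that activates the aryl hydrocarbon receptor (AHR), or DMSO as vehicle. They were harvested at 9 times, after 2, 4, 8 or 12 h or daily from 24 to 120 h. Each of the 36 combinations of label, treatment and hour had 4 libraries, and between 13588848 and 30719161 read pairs per library were counted on genes. Nothing in the labels ties libraries to animals or isolations, so p-values measure the spread between these libraries, which may be technical. All groups had cells that failed to attach washed away before treatment and were then kept in serum-free medium with insulin, transferrin, selenium and dexamethasone, without any added retinoid named in the labels.

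The labels did not hold everywhere. *Pkm* was higher with TCDD in the PkmΔDRE-labelled cells at 8 h (109.2 to 169 against 37.8 to 81.5 CPM, counts scaled to library size) and overlapped between treatments in the WT-labelled cells (29.3 to 62.6 against 41.8 to 80.8 CPM). Under the WT label *Pkm* was lower with TCDD without overlap at 4 h (57.04 to 66.7 against 78.6 to 139.3 CPM) and at 96 h (135.8 to 221 against 282.75 to 373 CPM). Under the PkmΔDRE label *Pkm* was also higher with TCDD without overlap at 12 h (93.7 to 201 against 37.0 to 52.4 CPM). The same held at 48 h (755 to 1079 against 225 to 568 CPM), and at 24 h the groups barely overlapped (278 to 491 against 73.5 to 296 CPM). The rises at 8, 12 and 48 h thus stood under the label that names the deletion. Groups are therefore called by their labels, and label and isolation batch cannot be told apart. Over all genes, 25 libraries were most like a neighbouring hour and 3 like a more distant one, and the rest were most like their own. The fourth library of the PkmΔDRE-labelled vehicle group at 4 h was most like 96 h (r = 0.9804, against 0.8096 with its own hour), and the fourth of that group at 96 h was most like 4 h (r = 0.9831 against 0.8065). These 2 are called the displaced libraries, and the fits that hold them were repeated without them. Among WT-labelled libraries, *Cyp1a1*, the standard AHR target, stood against the treatment label in library 21 (vehicle, 48 h, 3285 CPM), library 31 (vehicle, 96 h, 1717 CPM), library 40 (TCDD, 2 h, 1.15 CPM) and library 64 (TCDD, 72 h, 29.2 CPM). Hepatocyte markers were present throughout, and the summed level of 7 of them ran from 3119 to 194100 CPM, lowest late in culture.

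In the liver, retinol is stored as retinyl ester, mostly in stellate cells, by *Lrat*, which makes the ester. Hepatocytes and other cells oxidise retinol to retinal with alcohol and retinol dehydrogenases, and retinal dehydrogenases make retinoic acid from it. *Adh1* and *Adh4* encode alcohol dehydrogenases that accept retinol, *Dhrs3* encodes a reductase that returns retinal to retinol, and *Retsat* saturates retinol to dihydroretinol. *Cyp26a1* encodes the enzyme that clears retinoic acid, and *Rarb* a nuclear receptor that binds it. *Cyp26a1*, *Rarb* and *Dhrs3* are known retinoic acid targets.

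Promoter sequences were taken from RefSeq (GRCm38.p6), in windows of 250 bases before to 50 after a transcription start, and all 7 members had one. They were searched on both strands for GCGTG, the core of the DRE, and for DR5, a direct repeat of the retinoic acid half-site with 5 bases between. Half-sites were AGGTCA as well as GGGTCA, and equally AGTTCA as well as GGTTCA. DR5 was found in the windows of *Cyp26a1* (minus strand, -32 to -16 from the start) and *Rarb* (plus strand, -53 to -37), and in 32 of 32851 promoters (0.097%). GCGTG was found in the windows of *Lrat*, *Retsat* and *Rarb* and in 32.386% of all promoters. The bases before the start are given here for the 2 genes with DR5, at chr19:37697558-37697807 for *Cyp26a1* and chr14:16575477-16575726 for *Rarb*, and for *Adh1*, the member that responded most to TCDD, at chr3:138277335-138277584. Each reads 5′ to 3′ on the strand of its gene, with DR5 and GCGTG matches on either strand in capitals. The *Adh1* sequence has no capitals, which says only that these letters are not in this window.
Cyp26a1: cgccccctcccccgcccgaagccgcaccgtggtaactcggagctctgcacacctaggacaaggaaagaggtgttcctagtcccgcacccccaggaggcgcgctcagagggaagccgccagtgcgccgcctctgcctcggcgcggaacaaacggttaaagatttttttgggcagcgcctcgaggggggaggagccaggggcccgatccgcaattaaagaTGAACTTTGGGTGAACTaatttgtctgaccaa
Rarb: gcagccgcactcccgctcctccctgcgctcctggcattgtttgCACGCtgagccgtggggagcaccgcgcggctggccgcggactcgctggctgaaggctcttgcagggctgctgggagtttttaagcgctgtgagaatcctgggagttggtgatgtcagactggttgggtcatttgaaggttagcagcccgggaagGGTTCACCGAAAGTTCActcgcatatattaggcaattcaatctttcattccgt
Adh1: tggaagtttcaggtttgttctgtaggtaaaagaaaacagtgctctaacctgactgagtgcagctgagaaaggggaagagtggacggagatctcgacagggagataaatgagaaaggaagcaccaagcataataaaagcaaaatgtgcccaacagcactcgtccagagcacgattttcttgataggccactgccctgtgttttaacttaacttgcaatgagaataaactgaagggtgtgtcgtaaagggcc

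Compared per kilobase of exon in vehicle at 2 h, *Adh1* was the most abundant member, at 608 CPM per kb in the WT-labelled and 852 CPM per kb in the PkmΔDRE-labelled cells. *Retsat* (145 and 155 CPM per kb) and *Adh4* (57.2 and 74.5 CPM per kb) followed. *Dhrs3* (12.998 and 17.4 CPM per kb) and *Cyp26a1* (9.35 and 8.99 CPM per kb) were lower again, and *Rarb* (0.160 and 0.0496 CPM per kb) and *Lrat* (0.0166 and 0.0253 CPM per kb) were close to 0. By 120 h the order had become *Adh1* (29.4 and 24.2 CPM per kb) and *Dhrs3* (16.2 and 17.7 CPM per kb), then *Retsat*, *Adh4* and *Cyp26a1* between 2.04 and 4.83 CPM per kb, whose order differed between the labels. *Rarb* reached 1.24 and 0.958 CPM per kb, and *Lrat* remained lowest at 0.129 and 0.0827 CPM per kb.

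The first comparison asked how the members changed in vehicle over culture. The retinol-handling enzymes fell steeply, *Rarb* rose, and *Dhrs3* fell and came back. *Retsat* was 512 ± 103.6 CPM at 2 h, 99.5 ± 17.6 CPM at 24 h and 14.7 ± 4.44 CPM at 120 h in the WT-labelled cells (SD, n = 4), and 548 ± 95.9, 110 ± 45.02 and 12.8 ± 2.704 CPM in the PkmΔDRE-labelled cells. Under both labels every 120 h library lay below every 2 h library. Its log2 fold change from 2 to 120 h was -5.28 (SE 0.27, adjusted p = 4.22e-17) under the WT label, which is 38.97-fold lower, and -5.62 (SE 0.86, adjusted p = 8.79e-06) under the PkmΔDRE label, by quasi-likelihood tests in edgeR, adjusted for all genes tested by Benjamini-Hochberg. A gene was called where it changed by 1.5-fold or more with an adjusted p under 0.05, and by that rule 57.9% of all genes tested under the WT label and 49.4% under the PkmΔDRE label were called between 2 and 120 h, so a call here is common.

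*Adh4* fell from 83.002 ± 9.99 to 5.96 ± 2.24 CPM in the WT-labelled and from 108.02 ± 33.015 to 2.95 ± 0.655 CPM in the PkmΔDRE-labelled cells, log2 fold changes of -3.97 (SE 0.30) and -5.39 (SE 0.60). In CPM, though not on the log2 scale under the PkmΔDRE label, most of that fall was complete by 8 h. Vehicle libraries were then at 10.2 to 18.9 CPM and 15.3 to 32.4 CPM. From 24 to 120 h a further fall was called under both labels. The log2 fold change was -1.13 (adjusted p = 0.00121 from edgeR) and -2.16 (adjusted p = 0.00398 from edgeR). *Adh1* fell from 1357 ± 248.5 to 65.6 ± 49.4 CPM and from 1903 ± 325 to 54.1 ± 48.3 CPM, with log2 fold changes of -4.54 (SE 0.67) and -5.34 (SE 0.92). It had reached 107.5 ± 24.0 and 131.3 ± 66.1 CPM by 24 h, and from 24 to 120 h no further change was called, with log2 fold changes of -0.76 (adjusted p = 0.311 from edgeR) and -1.33 (adjusted p = 0.223 from edgeR).

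*Dhrs3* stood apart from the other enzymes. It fell from 38.05 ± 10.6 CPM at 2 h to 9.42 ± 3.84 CPM at 24 h under the WT label and from 50.997 ± 17.98 to 8.90 ± 4.10 CPM under the PkmΔDRE label, with its lowest vehicle levels at 12 h (6.53 ± 4.23 and 3.25 ± 0.942 CPM), and was back at 47.3 ± 27.4 and 51.9 ± 28.4 CPM at 120 h. Both legs were called under both labels. The log2 fold change was -2.13 (SE 0.40, adjusted p = 4.70e-05 from edgeR) and -2.67 (SE 0.40, adjusted p = 1.17e-05 from edgeR) from 2 to 24 h, and 2.28 (SE 0.40, adjusted p = 3.21e-05 from edgeR) and 2.49 (SE 0.40, adjusted p = 9.55e-05 from edgeR) from 24 to 120 h. From 2 to 120 h the difference was 0.16 (95% interval -0.62 to 0.93) and -0.18 (95% interval -0.95 to 0.58) on the log2 scale. Of all genes, 45.8% and 33.2% were called from 2 to 24 h and 35.6% and 23.4% from 24 to 120 h, under the WT and PkmΔDRE labels.

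*Rarb* was listed at 0, 0.743, 1.16 and 1.46 CPM in the WT-labelled libraries at 2 h and at 3.52, 5.99, 8.27 and 8.37 CPM at 120 h. In the PkmΔDRE-labelled libraries it was at 0, 0.203, 0.257 and 0.586 CPM and then at 2.30, 4.31, 6.21 and 7.36 CPM. The 2 hours did not overlap under either label, and the rise of 2.80 (SE 0.64, adjusted p = 0.000345 from edgeR) and 4.06 (SE 1.04, adjusted p = 0.00204 from edgeR) on the log2 scale was called. Its early levels rest on few counts. Most of the rise was over by 12 h (4.29 ± 1.17 and 4.60 ± 0.607 CPM).

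*Cyp26a1* followed no such course. Under the WT label it was 18.5 ± 8.07 CPM at 2 h, 41.6 ± 24.3 CPM at 12 h and 4.48 ± 3.03 CPM at 120 h, and the fall of 2.21 from 2 to 120 h on the log2 scale was called (log2 fold change -2.21, SE 0.76, adjusted p = 0.0123 from edgeR). Under the PkmΔDRE label the same contrast was -1.11 (SE 0.63, adjusted p = 0.138 from edgeR) and was not called. There the first vehicle library of 120 h held 24.5 CPM, the other 3 held 2.60 to 8.13 CPM, and without the first the change was -2.15 (adjusted p = 0.00852 from edgeR) and was called. *Lrat* had a median of 5 counts per library and none in 35 of them, and its vehicle means stayed between 0.0315 and 1.26 CPM. No change of *Lrat* over culture was called at this depth (log2 fold change from 2 to 120 h 2.76, adjusted p = 0.0999 under the WT label, and 1.45, adjusted p = 0.291 under the PkmΔDRE label, both from edgeR), except without library 3, the only 2 h library of the WT-labelled vehicle group with a count, where the adjusted p was 0.0257. *Lrat* is a stellate cell gene, and the summed level of 9 stellate cell markers ran from 24.0 to 587 CPM. Of these, *Hhip* and *Hand2* were most often without a count, at 0 in 79 and 57 libraries. *Ecm1* (median 33.2 CPM), *Reln* (15.2 CPM) and *Dcn* (3.67 CPM) had counts in every library. The medians of *Des*, *Pdgfrb*, *Rgs5* and *Colec11* were 0.580, 0.981, 0.433 and 0.245 CPM. In single libraries *Reln* reached 480 CPM and *Ecm1* 170 CPM, so the sum mostly follows *Ecm1* and *Reln*. In bulk RNA, fewer cells of a type and less RNA per cell cannot be told apart. The bile duct markers were *Spp1*, *Krt19*, *Sox9*, *Krt7* and *Epcam*. Their sum in WT-labelled vehicle libraries was 55.7 to 140.79 CPM at 2 h and 581 to 1069 CPM at 120 h. The highest sum in any library was 1381.7 CPM. In single libraries *Spp1* reached 1203.6 CPM, *Krt19* 300.25 CPM, *Sox9* 135.75 CPM, *Krt7* 52.252 CPM and *Epcam* 6.6833 CPM. A high sum can thus rest mostly on *Spp1*, and the part of each gene in this rise was not tested. Nor was the part of other cell types in the members' levels tested.

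**Figure D1:**
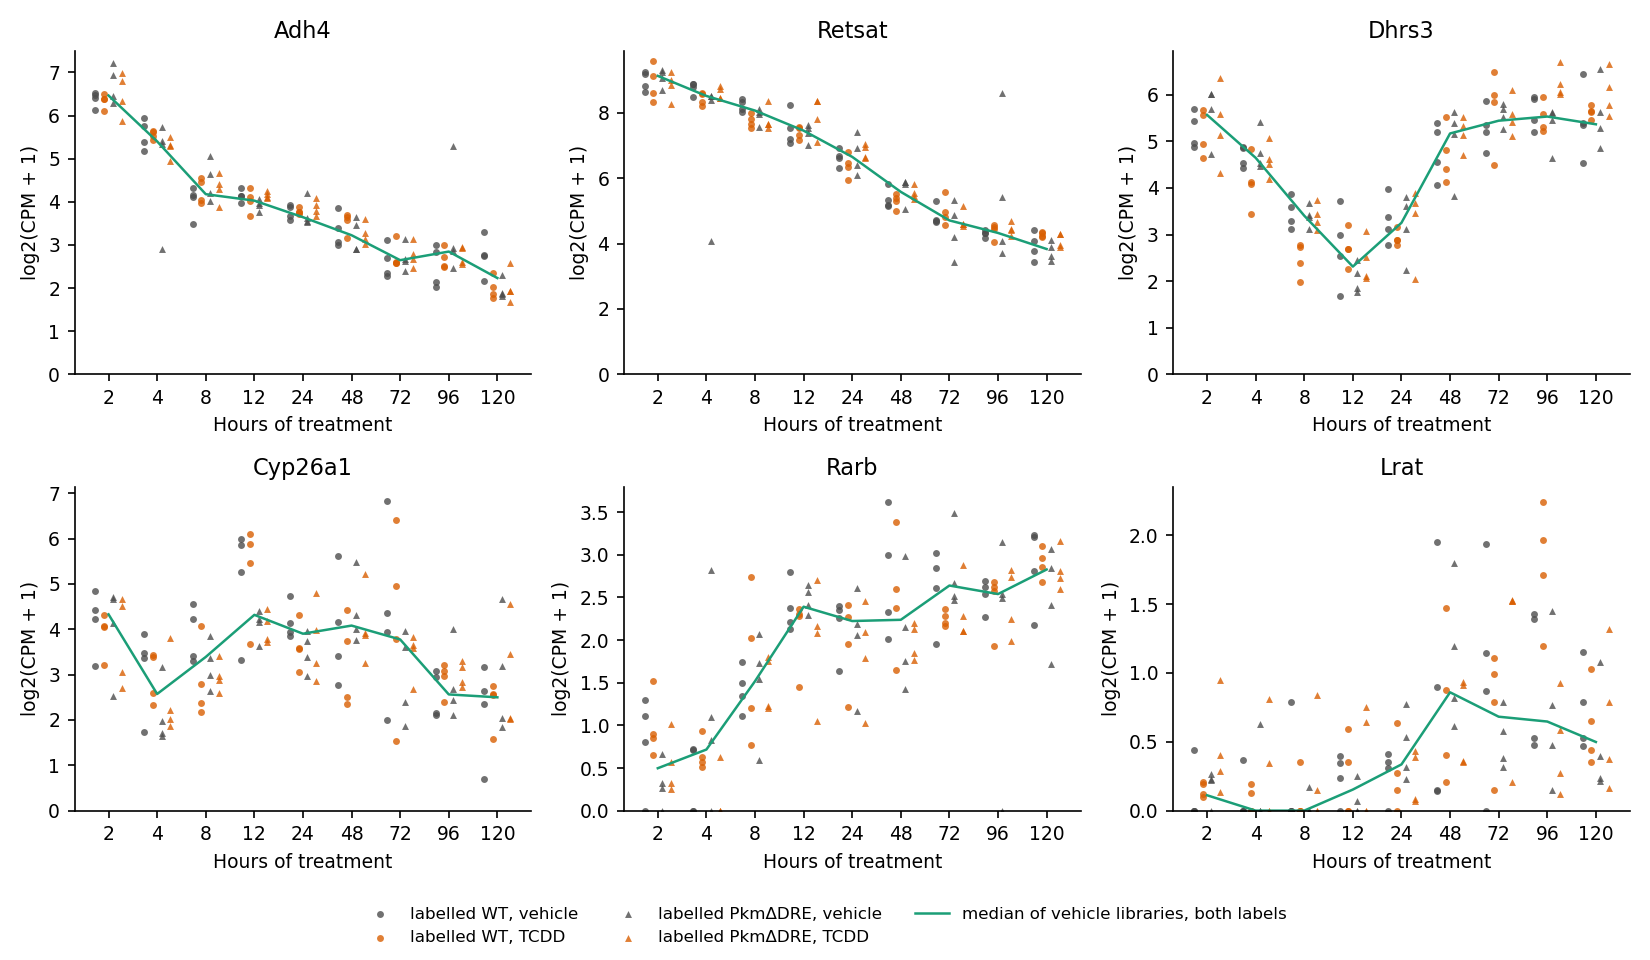
Levels of the 6 members other than *Adh1* in every library, as log2(CPM + 1) against hours of treatment; circles are WT-labelled and triangles PkmΔDRE-labelled libraries, grey vehicle and orange TCDD, and the green line joins the medians of the vehicle libraries of both labels. *Adh4* and *Retsat* decline, *Dhrs3* dips and recovers, *Rarb* climbs, and the single vehicle points far off the line at 4 and 96 h in *Adh4* and *Retsat* are the displaced libraries.

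The second comparison set TCDD against vehicle at each hour. *Adh1* was called higher with TCDD under both labels, late in culture, and no other member was called higher at any hour. Over all hours, 3 of 57 tests of a member at an hour were called under the WT label and 2 of 55 under the PkmΔDRE label, and 4 of these 5 calls were *Adh1*. Of all genes under the WT label, 37.4% (8 h), 15.1% (96 h), 1.46% (120 h), 0.373% (24 h), 0.0321% (12 h) and 0.00763% (48 h) were called, and 0.0% at the hours 2, 4 and 72. Under the PkmΔDRE label the shares were 1.13% (72 h), 0.633% (120 h), 0.404% (48 h), 0.106% (8 h), 0.0793% (96 h), 0.024% (12 h), 0.016% (24 h) and 0.0% (2 and 4 h). Where edgeR called no gene, it gave an unadjusted p under 0.05 to 166 (2 h), 2126 (4 h) and 276 genes (72 h) under the WT label and to 1717 (2 h) and 289 genes (4 h) under the PkmΔDRE label, and DESeq2 called 0, 43, 15, 628 and 2 genes.

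*Adh1* in the WT-labelled cells was at 704, 930, 913 and 1038 CPM with TCDD at 96 h and at 138.7, 100.4, 317 and 142.9 CPM with vehicle. Every TCDD library was above every vehicle library, and the log2 fold change was 2.42 (SE 0.33, adjusted p = 0.00145 from edgeR), a 5.36-fold rise, and 2.87 (adjusted p = 3.62e-06 from edgeR) without library 31. At 120 h it was at 633, 643, 483 and 615 CPM against 38.3, 133.5, 21.4 and 68.98 CPM, again without overlap. That rise was 9.01-fold, 3.17 on the log2 scale (SE 0.53, adjusted p = 0.0272 from edgeR). Among the 96 h TCDD libraries, library 65 had 11.4% of read pairs unmapped and 63.3% of stranded counts on the first strand. The vehicle libraries of 96 h had 3.46% to 6.21% unmapped and 50.5% on that strand. The 96 h call was kept when any 1 library was left out.

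At 72 h in the PkmΔDRE-labelled cells, *Adh1* was at 1026, 905, 1404 and 1258 CPM with TCDD and at 67.3, 101.3, 167 and 185 CPM with vehicle. The groups were far apart, with a log2 fold change of 3.11 (SE 0.32, adjusted p = 0.000438 from edgeR), an 8.65-fold rise. At 120 h the values were 585, 753, 313 and 354 CPM against 122.75, 52.5, 17.1 and 24.0 CPM, a log2 fold change of 3.20 (SE 0.60, adjusted p = 0.0499 from edgeR). This last call lies at the threshold and was lost when any 1 library other than the first vehicle library was left out (adjusted p from 0.0578 to 0.139), although TCDD remained above vehicle with a log2 fold change between 2.91 and 3.98. Under the WT label the 120 h call was lost without library 33, 36, 69, 70 or 72. The share of unmapped read pairs differed by treatment under the PkmΔDRE label. It was 2.43% to 3.16% with TCDD and 3.07% to 7.74% with vehicle at 72 h. At 96 h it was 1.96% to 2.90% against 4.30% to 11.1%, and at 120 h 2.20% to 2.48% against 4.06% to 6.68%. The part of this difference in the *Adh1* results was not tested.

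The summed markers of other cell types, which lean on few genes, also differed between treatments late in culture. Whether these sums follow cell types or single genes such as *Spp1* was not tested. At 120 h under the WT label, bile duct markers summed to 317 to 532 CPM with TCDD and 581 to 1069 CPM with vehicle, stellate cell markers to 90.6 to 169 and 30.3 to 81.7 CPM, and hepatocyte markers to 4277 to 8810 and 3119 to 15853 CPM. The mean of the hepatocyte markers was lower with TCDD there (7553 against 9020 CPM). For the other calls of *Adh1* at single hours that mean was higher with TCDD, with overlapping ranges. At 96 h under the WT label it was 13726 against 9971 CPM. Under the PkmΔDRE label it was 15825 against 12384 CPM at 72 h and 10919 against 7803 CPM at 120 h. The part of these markers in the *Adh1* results was not tested.

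Single libraries moved the *Adh1* difference at several other hours, and at 96 h under the PkmΔDRE label 1 library decided the call. At 96 h under the PkmΔDRE label, *Adh1* was at 1498, 1220, 1165 and 821 CPM with TCDD and at 131.2, 131.1 and 96.995 CPM in 3 vehicle libraries, but at 1764 CPM in the displaced library, and the log2 fold change was 1.00 (SE 0.96, adjusted p = 0.783 from edgeR). Without it the difference was 3.25 (SE 0.24, adjusted p = 3.18e-05 from edgeR), a 9.499-fold rise. At 48 h under the same label the groups did not overlap (588 to 1564 against 35.9 to 239 CPM), and the log2 fold change of 3.05 had an adjusted p of 0.0665 from edgeR and 4.48e-07 from DESeq2. Under the WT label, library 21 (vehicle, 734 CPM) lay above 2 of the 4 TCDD libraries at 48 h, and library 64 (TCDD, 93.2 CPM) below all 4 vehicle libraries at 72 h, while library 27 (vehicle, 725 CPM) was high at 72 h with *Cyp1a1* at 22.5 CPM. Neither hour was called, with log2 fold changes of 2.01 (SE 0.87) and 2.48 (SE 0.91). Without library 21 at 48 h and library 64 at 72 h these became 3.48 (adjusted p = 0.324 from edgeR) and 2.88 (adjusted p = 0.294 from edgeR), still without a call.

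At 24 h *Adh1* was higher in every TCDD library than in any vehicle library, without a call. The share of all genes that part in this way was not counted. Under the WT label TCDD libraries were at 435, 280, 181 and 213 CPM and vehicle libraries at 120, 113.6, 72.1 and 124.2 CPM, with a log2 fold change of 1.44 (SE 0.26, adjusted p = 0.0533 from edgeR and 0.000126 from DESeq2). Under the PkmΔDRE label they were at 432, 252, 323 and 343 CPM against 212, 97.1, 61.6 and 155 CPM, also without overlap (log2 fold change 1.29, SE 0.37, adjusted p = 0.99992 from edgeR). At 8 h under the WT label, *Adh1* was lower with TCDD in all 4 libraries (473 to 578 against 598 to 725 CPM), by less than 1.5-fold (log2 fold change -0.43, SE 0.13, adjusted p = 0.0166 from edgeR). Averaged over the 9 hours, the log2 fold change of *Adh1* was 1.203 (SE 0.19, adjusted p = 5.84e-06 from edgeR) under the WT and 1.41 (SE 0.21, adjusted p = 1.32e-06 from edgeR) under the PkmΔDRE label, and 1.62 under the latter without the displaced libraries and 1.43 under the former without libraries 21, 31, 40 and 64. In these averages 9.17% and 2.12% of all genes were called, and of the other 6 members none was, with *Adh1* alone at an unadjusted p under 0.05 under each label; DESeq2 likewise called *Adh1* and no other member. The average of *Lrat* under the PkmΔDRE label was 0.68 (unadjusted p = 0.0810 from edgeR), and without the displaced libraries it was 1.19 (unadjusted p = 0.00730, adjusted p = 0.113 from edgeR), which was not called.

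**Figure D2:**
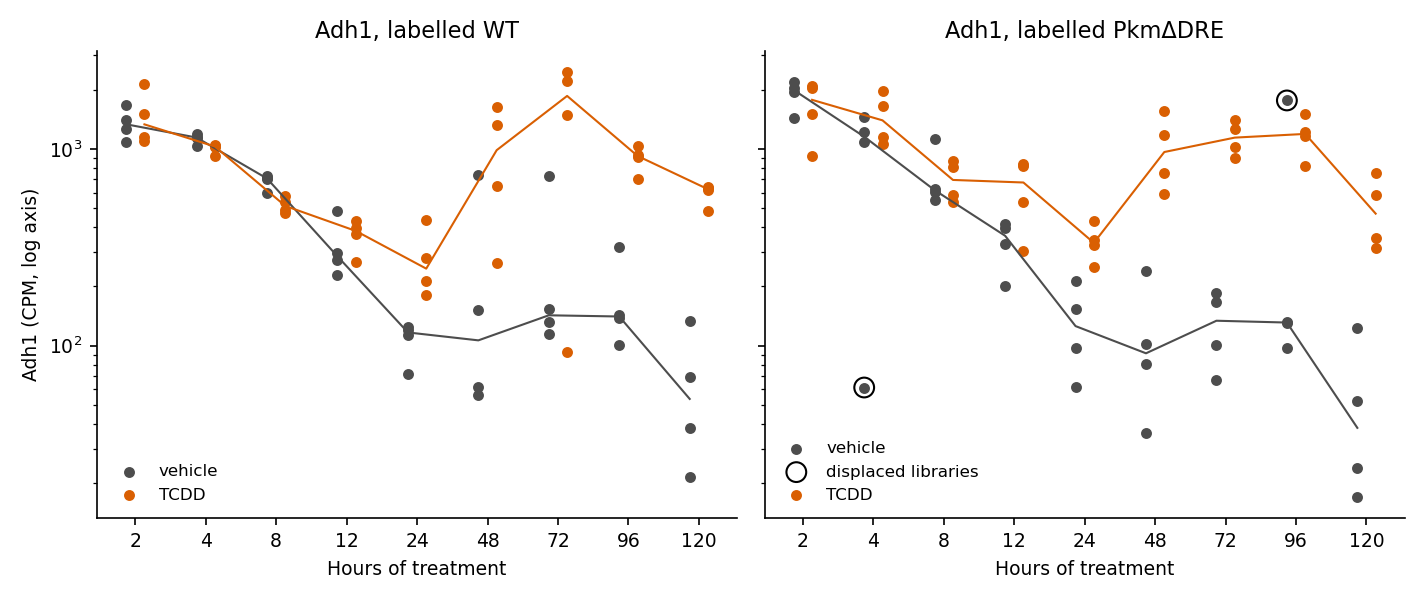
*Adh1* in every library as CPM on a log axis against hours of treatment, WT-labelled libraries left and PkmΔDRE-labelled right; grey is vehicle, orange is TCDD, lines join the medians of the 4 libraries, and circles ring the displaced libraries. Both medians fall until 24 h, after which those of TCDD turn upward, and at 96 h under the WT label TCDD libraries are at 704 to 1038 CPM and vehicle libraries at 100 to 317 CPM.

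*Dhrs3* gave the fifth call. At 8 h under the WT label it was at 5.80, 5.64, 2.94 and 4.21 CPM with TCDD and at 13.5, 7.65, 8.76 and 11.1 CPM with vehicle, with no overlap. It fell by 1.18 on the log2 scale (SE 0.30, adjusted p = 0.00719 from edgeR), 2.26-fold lower. At that hour 37.4% of all genes were called. The same TCDD libraries had 8.36% to 21.9% of uniquely mapped pairs on no gene, against 4.89% to 5.99% with vehicle. Their stellate cell markers summed to 66.4 to 111.95 CPM against 39.4 to 47.5 CPM, and their Kupffer cell markers to 53.4 to 97.2 CPM against 120.99 to 160.98 CPM. The part of these differences in the 8 h results was not tested. Under the PkmΔDRE label at 8 h the groups overlapped (7.60 to 12.4 against 7.74 to 11.8 CPM, log2 fold change -0.02, 95% interval -0.56 to 0.52). At 96 h under the PkmΔDRE label the direction was the other way, at 102.3, 63.5, 74.4 and 66.1 CPM with TCDD against 42.6, 47.6, 48.5 and 23.8 CPM, of which the last is the displaced library. That difference was not called (log2 fold change 0.89, adjusted p = 0.509; without that library, 0.68 and adjusted p = 0.105, both from edgeR).

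*Retsat* and *Adh4* were not called in edgeR's fits of single hours with all libraries. *Retsat* was lower with TCDD at 8 h under the WT label (222, 184, 200 and 252 CPM against 260, 276, 340 and 322 CPM), a log2 fold change of -0.51 (SE 0.14, adjusted p = 0.0100 from edgeR) that is just under the 1.5-fold limit. It passed that limit without library 48 (-0.60, adjusted p = 0.00955 from edgeR), with a trend on GC content removed (-0.60, adjusted p = 0.00637 from edgeR) and in 1 fit of all hours of the label (-0.62, adjusted p = 0.0398 from edgeR). At 96 h under the PkmΔDRE label, where the displaced library held 389 CPM and all others 12.2 to 41.8 CPM, that kind of fit called *Retsat* too (-2.53, adjusted p = 0.00323 from edgeR), and without the displaced libraries it gave -0.15. Averaged over hours its log2 fold change was -0.11 (95% interval -0.27 to 0.05) under the WT label and -0.20 (95% interval -0.56 to 0.16) under the PkmΔDRE label, and the second became 0.02 without the displaced libraries. *Adh4* averaged -0.07 (95% interval -0.23 to 0.09) and -0.16 (95% interval -0.43 to 0.10), the second being -0.05 without the displaced libraries. It was 2.62, 2.39, 4.10 and 3.08 CPM with TCDD and 3.48, 8.93, 5.66 and 5.77 CPM with vehicle at 120 h under the WT label, a log2 fold change of -0.97 that edgeR did not call (adjusted p = 0.147) and DESeq2 did (adjusted p = 0.0396).

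The retinoic acid targets *Cyp26a1* and *Rarb* were not called at any hour in edgeR's fits of single hours with all libraries. *Cyp26a1* overlapped between treatments at all 9 hours under both labels. At 12 h under the WT label it was at 43.3, 67.4, 11.8 and 57.6 CPM with TCDD and at 37.6, 62.5, 8.93 and 57.5 CPM with vehicle, and at 72 h at 12.9, 30.002, 83.9 and 1.92 CPM against 14.4, 19.5, 112.9 and 3.02 CPM. Both treatments held libraries at both extremes. Its hourly log2 fold changes ran from -1.02 (8 h, WT label, 95% interval -2.001 to -0.05, adjusted p = 0.0801 from edgeR and 0.0322 from DESeq2) to 0.53, and without library 48 the 8 h difference was -1.72 and called (adjusted p = 0.00546 from edgeR), as it was without the filter on low counts (-0.999, adjusted p = 0.00313 from edgeR). The averages were -0.36 (95% interval -0.84 to 0.13) and -0.02 (95% interval -0.43 to 0.40). *Rarb* averaged 0.02 (95% interval -0.32 to 0.36) and -0.47 (95% interval -0.98 to 0.05) on the log2 scale, the second being -0.33 without the displaced libraries. At 4 h under the PkmΔDRE label, where it failed the filter, *Rarb* was at 0, 0.545, 0 and 0 CPM with TCDD and at 0.778, 0 and 1.15 CPM with vehicle, but at 6.08 CPM in the displaced library. In 1 fit of all hours of the label that difference was called (-3.53, adjusted p = 0.0244 from edgeR), and without the displaced libraries it was not (-1.94, adjusted p = 1.0 from edgeR).

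*Lrat* passed the filter on low counts in 4 of the 9 hours under the WT label and 3 under the PkmΔDRE label. Its largest difference was at 72 h under the PkmΔDRE label, at 1.87, 1.87, 0.1545 and 1.88 CPM with TCDD and 0.303, 0.492, 0.243 and 0.726 CPM with vehicle. Of the TCDD libraries 3 were above and 1 below all vehicle libraries, and the log2 fold change of 1.67 (SE 0.70) was not called (adjusted p = 0.414 from edgeR). Its lowest adjusted p was at 96 h under the WT label, at 1.29, 3.72, 2.28 and 2.90 CPM with TCDD and 0.443, 0.392, 1.63 and 1.70 CPM with vehicle, where the groups overlapped and the log2 fold change of 1.34 (SE 0.48) was not called by edgeR (adjusted p = 0.0526) and was by DESeq2 (adjusted p = 0.0219). Without library 31, 32 or 65 edgeR called it too (adjusted p from 0.0338 to 0.0426), as it did without the filter on low counts (adjusted p = 0.00271) and with a covariate for unassigned read pairs (adjusted p = 0.0341). The stellate cell markers summed to 70.034 to 160 CPM with TCDD and 78.1 to 104.2 CPM with vehicle in those libraries. At 96 h under the PkmΔDRE label the *Lrat* groups overlapped, at 0.0889 to 0.900 against 0.108 to 1.74 CPM. Without the displaced library the log2 fold change there was -0.99 (95% interval -2.85 to 0.88, adjusted p = 0.777 from edgeR), which was not called.

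**Figure D3:**
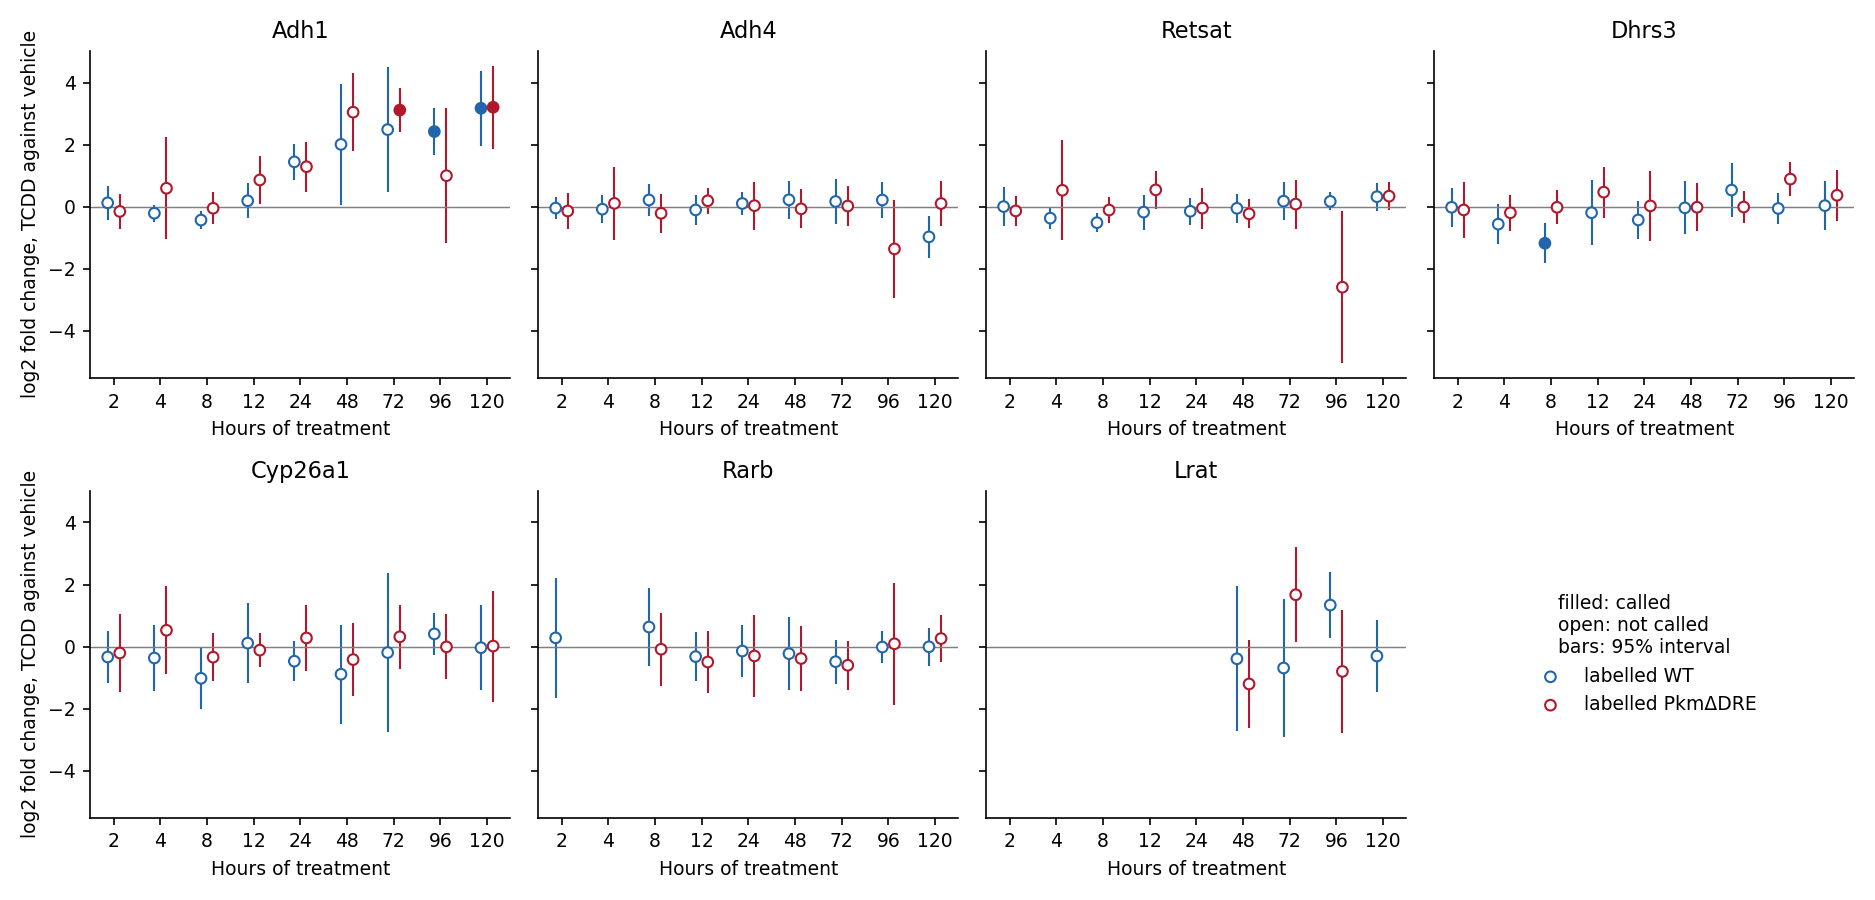
Log2 fold change of TCDD against vehicle for each member at each hour, WT-labelled in blue and PkmΔDRE-labelled in red, with 95% intervals; filled points were called and hours at which a gene failed the filter have no point. After 24 h *Adh1* lies between 2.01 and 3.20, apart from 96 h under the PkmΔDRE label, where the displaced library is included, and the other members lie near 0 at most hours.

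The third comparison asked whether the response to TCDD differed between the labels, as the response under the PkmΔDRE label minus that under the WT label in 1 fit of the 16 libraries of an hour. None of 57 member tests was called by edgeR, 4 had an unadjusted p under 0.05, and DESeq2 called none. Of all genes, 0.00715% were called at 48 h, 0.00695% at 72 h and 0.0% at the other 7 hours. At these an unadjusted p under 0.05 was given to 482 to 2114 genes, with fewer at 2 h, and DESeq2 called 0 to 12, with more at 96 h, when a displaced library was included. For *Adh1* the difference was 0.04 at 120 h (95% interval -1.64 to 1.72) and -0.09 at 24 h (95% interval -1.08 to 0.90), intervals that leave room for differences of more than 1.5-fold either way. At 96 h the *Adh1* difference was -1.41 (95% interval -3.74 to 0.91) with the displaced library and 0.79 (95% interval -0.05 to 1.63) without it, and that of *Retsat* -2.75 and -0.39. *Dhrs3* differed by 1.04 at 8 h (95% interval 0.26 to 1.82, adjusted p = 0.292 from edgeR). In vehicle, averaged over hours, none of the 7 members differed between labels by edgeR's test or DESeq2, with 1.2% of all genes called, and *Cyp26a1* alone had an unadjusted p under 0.05 (log2 difference PkmΔDRE minus WT of -0.50, SE 0.24, adjusted p = 0.282 from edgeR). Without the displaced libraries that difference was -0.46 (unadjusted p = 0.0591, adjusted p = 0.340 from edgeR).

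A further list of 44 genes of the retinoid pathway was counted by role. The list held the other retinol and retinal dehydrogenases, carriers and binding proteins, retinal oxidases, esterases, carotenoid-cleaving enzymes, receptors and targets. At 120 h under the WT label, 3 of the 32 tested were called higher and 1 lower with TCDD, and under the PkmΔDRE label 1 of 32 higher and 1 lower, where 1.46% and 0.633% of all genes were called. At 96 h under the WT label 4 of 32 were called higher and 1 lower, beside 15.1% of all genes, with a median log2 fold change over the list of -0.035 beside 0.015 over all genes, and at 8 h 3 of 33 higher and 8 lower, beside 37.4% of all genes, with a median of -0.49 beside 0.0040. At these 2 hours the list was called about as often as genes in general. At 48 and 72 h under the PkmΔDRE label 2 of 34 and 3 of 33 were higher and none lower, beside 0.404% and 1.13% of all genes, and at 24 h under the WT label 1 of 32 was higher, beside 0.373%.

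The calls after 24 h fell on few genes. *Adh7*, another alcohol dehydrogenase that accepts retinol, was at 31.6 to 58.6 CPM with TCDD and 0.138 to 1.49 CPM with vehicle at 120 h under the WT label (log2 fold change 5.67, SE 0.51, adjusted p = 0.00113 from edgeR), and at 24.5 to 62.9 against 0.656 to 1.31 CPM at 72 h under the PkmΔDRE label (log2 fold change 5.43, SE 0.41, adjusted p = 5.66e-05 from edgeR). *Rdh10*, a retinol dehydrogenase of retinoic acid synthesis, was at 32.9 to 42.5 against 13.3 to 19.2 CPM at 24 h under the WT label with TCDD and vehicle (log2 fold change 1.36, SE 0.16, adjusted p = 0.00457 from edgeR). It was called at 96 and 120 h under the WT and 48 and 72 h under the PkmΔDRE label too. *Bco1*, which cleaves beta-carotene to retinal, was called higher at 96 and 120 h under the WT label and 72 h under the PkmΔDRE label, and *Aldh8a1* at 96 h under the WT label. *Fabp5*, a binding protein for fatty acids and retinoic acid, was called lower at 8, 96 and 120 h under the WT label and at 120 h under the PkmΔDRE label (log2 fold change -1.26, SE 0.22, adjusted p = 0.0341 from edgeR).

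At 8 h under the WT label, where 63.6% of all called genes were higher with TCDD, 8 genes of the list were called lower and 3 higher. Those lower were the carriers *Rbp4* (log2 fold change -0.72) and *Ttr* (-0.68), the receptors *Rarg*, *Rxra* and *Rxrb*, *Fabp5*, *Dhrs4* and another dehydrogenase, and those higher were *Adh7*, *Dhrs9* and *Nrip1*. Averaged over hours, *Adh7* (log2 fold change 2.60 under the WT and 2.55 under the PkmΔDRE label) and *Rdh10* (0.84 and 0.75) were called higher under both labels. *Aldh1a1*, a retinal dehydrogenase that makes retinoic acid, was called lower under the PkmΔDRE label (log2 fold change -0.60, SE 0.15, adjusted p = 0.00802 from edgeR). That change, 1.52-fold, lies just past the 1.5-fold limit, in a fit that holds the displaced libraries. Under the WT label it was lower by less than 1.5-fold (log2 fold change -0.21, SE 0.08, adjusted p = 0.0288 from edgeR).

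**Figure D4:**
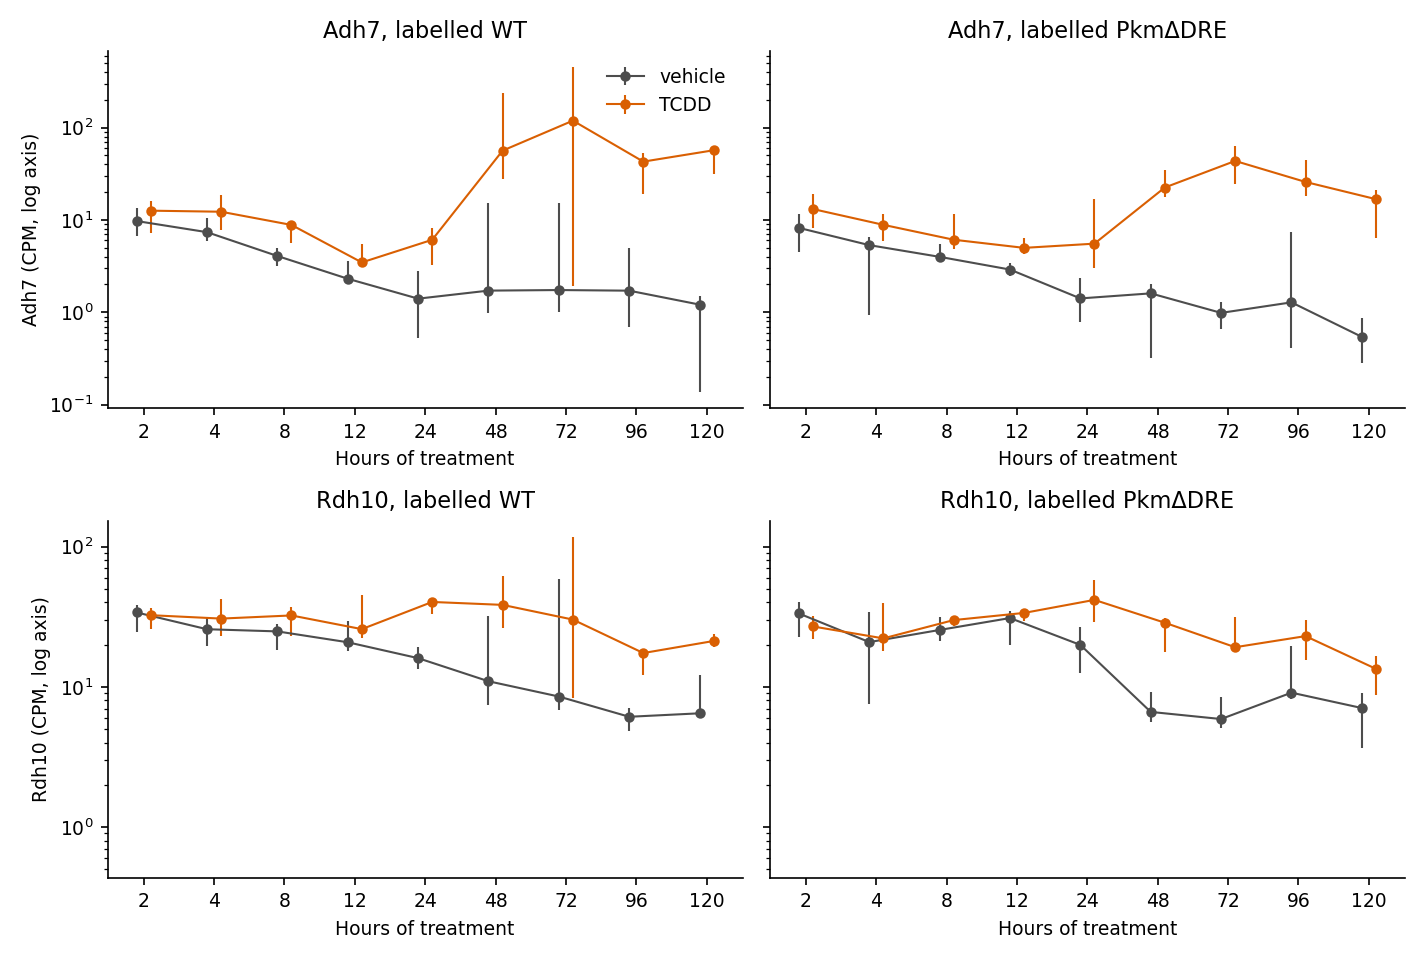
Levels of *Adh7* (upper row) and *Rdh10* (lower row) as CPM on a log axis against hours of treatment, WT-labelled left and PkmΔDRE-labelled right; points are medians of 4 libraries, bars reach from the lowest to the highest, grey is vehicle and orange is TCDD. *Adh7* with TCDD is at 31.6 to 58.6 CPM at 120 h under the WT label, where vehicle libraries are at 0.138 to 1.49 CPM.

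In vehicle from 2 to 120 h, 57.9% and 49.4% of all genes were called under the WT and PkmΔDRE labels, of which 57.6% and 54.1% were higher. Of the list, 25 of 37 tested genes were called lower and 3 higher under the WT label, with a median log2 fold change of -1.74 beside 0.21 over all genes. Under the PkmΔDRE label 22 of 36 were lower and 2 higher, with a median of -1.73 beside 0.24. Of the 13 retinol and retinal dehydrogenases 12 and 10 were lower. *Rdh7* fell from 1276 ± 98.9 to 52.9 ± 32.5 CPM under the WT label, *Rdh16* from 66.2 ± 40.7 CPM to 0 to 0.850 CPM and *Rdh9* from 1.99 ± 1.85 CPM to 0 to 0.0740 CPM. The carrier *Ttr* (8613 ± 1632 to 857 ± 490 CPM) fell as well under that label, as did *Stra6l* (435 ± 22.0 to 65.9 ± 18.3 CPM). Receptors parted: *Rarg* rose from 0.927 ± 0.353 to 16.7 ± 3.27 CPM under the WT label and was called higher under both labels, and *Rxra* and *Rxrg* were called lower under both. *Aldh1a1* was called higher under the WT label (log2 fold change 1.51, SE 0.20, adjusted p = 1.44e-07 from edgeR). Under the PkmΔDRE label the direction was the same without a call (1.08, SE 0.55, adjusted p = 0.101 from edgeR), in a fit that holds the displaced libraries. The difference between labels in this change was not tested.

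The genes most like each member were found from Pearson's r of log2(CPM + 1) over the 36 group means, which share libraries' culture times and treatments. For *Retsat* they were *Apoa5* (r = 0.995), *Asgr2* (r = 0.994) and *Ces2a* (r = 0.994), and for *Adh4* *Slc39a14* (r = 0.984), *Cth* (r = 0.978) and *Sec14l2* (r = 0.977). *Adh1* was most like *Ugt1a6b* (r = 0.882), *Ugt1a9* (r = 0.869) and *Slc46a3* (r = 0.865). *Dhrs3* was most like *Tle3* (r = 0.967), *H3f3a* (r = 0.954) and *Casp6* (r = 0.950), and *Rarb* like *Tcp11l1* (r = 0.955), *Zfhx2* (r = 0.954) and *Rnf214* (r = 0.953). *Cyp26a1* had no close match, with *Sowahb* at r = 0.781, *Abcb10* at 0.753 and *Lrig1* at 0.722. *Lrat* was most like *Col6a2* (r = 0.862), *Col6a1* (r = 0.854) and *Cd248* (r = 0.853). Among members, *Adh4* and *Retsat* were the most alike pair (r = 0.933), and *Retsat* and *Rarb* ran opposite (r = -0.861), as did *Adh4* and *Rarb* (r = -0.906).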

How the data were processed

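RNA was measured in 144 libraries of primary mouse hepatocytes. Per the labels, the authors trimmed reads with Trimmomatic (0.39), checked them with FastQC (0.11.3) and aligned them to GRCm39 with STAR (2.7). The deposited files hold STAR's raw read pair counts per gene, of which the unstranded column was used, so reads of a gene and of an overlapping antisense gene cannot be told apart. The 4 summary lines of each file, holding 16.8% to 48.0% of read pairs, were not counted as genes or in library sizes. Gene positions, symbols and exon lengths came from a GRCm38 annotation and promoters from RefSeq (GRCm38.p6), both other builds than that of the counts.

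Counts were scaled by TMM and given as CPM, counts scaled to library size. Groups were taken from the labels and compared in edgeR (4.0.16, R 4.3.3) with robust quasi-likelihood tests after filterByExpr, 1 fit per label and hour for TCDD, 1 per hour for the difference between labels, and fits over hours for averages and culture time. P-values were adjusted by Benjamini-Hochberg over all genes tested, and scripts were tested on simulated data. Alternatives were RLE scaling, no filter, no fold threshold, DESeq2 (1.42.0), pooled fits, removal of a GC trend, a covariate for unassigned read pairs and leaving out libraries. Those without the displaced libraries were chosen after seeing the data.

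The members and gene lists were chosen with earlier results of these data known. Members are named in every comparison, genes of the pathway list where called, at most 3 per role and comparison by size of change, and for each member the 3 genes most like it.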

Additional observations from a re-analysis of the deposited data

Results flagged for a closer look

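In 22 of the 225 groups of 4 libraries tested for the members, 1 library lay far from the other 3 by Dixon's criterion at the 95% level, which chance alone meets in about 1 group in 20. The flags fell in 18 libraries, and 4 of them belong to the 2 displaced libraries, which were most like another hour. No explanation was tested for any of them.

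*Adh1* stood at 1764.1 CPM in the displaced library of 96 h (PkmΔDRE label, vehicle; others 96.995 to 131.2), at 1118.7 CPM in library 84 (PkmΔDRE label, vehicle, 8 h; others 548 to 628), at 733.94 CPM in library 21 (WT label, vehicle, 48 h; others 56.1 to 151) and at 724.57 CPM in library 27 (WT label, vehicle, 72 h; others 114.4 to 153). *Cyp26a1* and *Retsat* were also high in library 27, at 112.87 CPM (others 3.02 to 19.5) and 38.618 CPM (others 24.6 to 25.6).

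*Adh4* stood at 38.196 CPM in the displaced library of 96 h, at 17.476 CPM in library 90 (PkmΔDRE label, vehicle, 24 h), at 3.9272 CPM in the third library of its group (PkmΔDRE label, vehicle, 120 h) and at 8.2326 CPM in library 63 (WT label, TCDD, 72 h), each above the others of its group. *Retsat* was high at 388.88 CPM in the displaced library of 96 h (others 12.2 to 41.8), 325.17 CPM in the first library of its group (PkmΔDRE label, TCDD, 8 h) and 34.68 CPM in the first library of its group (PkmΔDRE label, TCDD, 72 h). It was low at 15.97 CPM in the displaced library of 4 h (others 334 to 366) and 32.619 CPM in library 94 (PkmΔDRE label, vehicle, 48 h).

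*Cyp26a1* was high at 12.968 CPM in the first library of its group (PkmΔDRE label, TCDD, 4 h) and at 7.9739 CPM in library 77, of the matching vehicle group. *Rarb* was high at 10.27 CPM in library 97 (PkmΔDRE label, vehicle, 72 h) and low at 1.7424 CPM in library 50 (WT label, TCDD, 12 h) and 2.8014 CPM in library 68 (WT label, TCDD, 96 h). *Lrat* was low at 0.1545 CPM in the third library of its group (PkmΔDRE label, TCDD, 72 h) and high at 1.1137 CPM in the first library of its group (PkmΔDRE label, vehicle, 120 h).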

How the results depend on the processing

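No paired analysis was possible because the labels give libraries no replicate number, animal or isolation day. For TCDD against vehicle by hour under the WT label, the 3 member calls became 5 without a fold threshold, 5 with the GC trend removed, 5 with a covariate for unassigned read pairs and 7 with DESeq2. Leaving out each library in turn gave 2 to 5. Under the PkmΔDRE label the 2 calls became 5 in 1 fit per label and 4 in that fit without the displaced libraries, and 1 with RLE scaling or without the filter on low counts. Leaving out each library gave 1 to 3. For the difference between labels the count of 0 became 2 in 1 fit of all libraries, namely *Rarb* at 4 h (-4.27, adjusted p = 0.0330) and *Retsat* at 96 h (-2.59, adjusted p = 0.00949), both at hours that hold a displaced library. The cause of these moves was not tested. No called change of a member that was recomputed under these alternatives turned in direction, but values without a call did, among them the average of *Retsat* under the PkmΔDRE label (-0.20, and 0.02 without the displaced libraries) and the label difference of *Adh1* at 96 h (-1.41 and 0.79).

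Of the 5 calls by hour, *Adh1* at 96 h (WT label) and 72 h (PkmΔDRE label) and *Dhrs3* at 8 h (WT label) were kept under every alternative run. *Adh1* at 120 h was lost without the filter under both labels (adjusted p = 0.0835 and 0.302), and under the PkmΔDRE label with RLE scaling and the covariate as well. Averages over hours kept 1 call per label, culture time 5 and 4 calls (5 to 6 and 4 to 5 on leaving out a library) and the label difference 0. For the averages and the label difference, hours and not single libraries were left out in turn. Refits without each library were not run for them. Depth limits *Lrat* and early *Rarb* most.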

Other observations

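Libraries of the TCDD and vehicle groups of 1 label and hour were set side by side by their order in the series, which is only a name and pairs nothing by design. Over the 72 such pairs, the deviations of *Cyp26a1* from its group means had a Pearson correlation of 0.824, those of *Dhrs3* 0.515, *Lrat* 0.359, *Adh1* 0.308, *Rarb* 0.15, *Adh4* 0.144 and *Retsat* 0.079. For *Cyp26a1* this can be seen at 72 h under the WT label, where the third library of each treatment was highest (112.9 and 83.9 CPM) and the fourth lowest (3.02 and 1.92 CPM). Without the displaced libraries, over 70 pairs, the correlations were 0.824 (*Cyp26a1*), 0.525 (*Dhrs3*), 0.401 (*Lrat*), 0.469 (*Adh1*), 0.265 (*Rarb*), 0.278 (*Adh4*) and 0.206 (*Retsat*). These correlations describe the libraries as deposited, with no test. The comparisons of TCDD and vehicle took the libraries as unpaired.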
